A study of Mus musculus with 9 samples.

Results

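Livers of acetaminophen-treated mice that had received MSC were compared with livers of acetaminophen-treated mice that had received HDF cells. The comparison used all 3 libraries labelled APAP_MSC and all 3 labelled APAP_HDF, 6 of the 9 libraries of the series. Every mouse was C57BL6J, aged 8 weeks, and was given acetaminophen (APAP) intraperitoneally at 300 mg/kg. Each mouse of the 2 cell groups then received 500000 cells intravenously, 90 min after APAP, and livers were taken at 24 h according to the series title. The remaining 3 libraries, labelled APAP, had the drug and no cells, and are given beside the comparison as levels. Untreated liver is not analysed here, so each level below is that of an injured liver. MSC usually denotes mesenchymal stromal cells, connective tissue cells studied as a cell therapy, and HDF human dermal fibroblasts, a skin cell often infused as a control. The labels spell out neither name, nor the source of the cells.

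The labels give hepatocytes as the cell type, yet the RNA came from a piece of whole liver. Hepatocyte genes were present in all 9 libraries (Alb at 62366 to 86006 and Hnf4a at 614 to 825 CPM, the usual counts scaled by library size), and genes of endothelium, macrophages and bile ducts were present as well. In such tissue, fewer cells of a type and less RNA per cell cannot be told apart. The labels state no separate mouse for each library of a group, and a p-value here therefore reflects the variation among these libraries, which may be technical.

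Acetaminophen is oxidised by cytochromes P450 in hepatocytes around the central vein to a reactive product that glutathione can trap. When glutathione runs out, these pericentral hepatocytes die, and the surviving liver lowers many genes of its metabolism while it mounts stress, wound and inflammatory responses. Recovery then brings the return of lipid, bile acid, drug and amino acid metabolism, of which each is run by a small set of rate-setting enzymes and transcription factors.

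The 6 libraries held 56174000 to 61582000 counts, rounded to 5 digits, and where a gene had no read in a library, its level could still be that of 3 counts, which is 0.0453 to 0.0567 CPM over the 9 libraries (counting error alone). Mitochondrially encoded genes took 6.99% to 7.24% of counts in APAP_MSC and 6.20% to 6.46% in APAP_HDF, and the part of this in the results was not tested. APAP_HDF library 1 stood apart from its group. On the first principal component of the 9 libraries it lay at -43.1, against -16.2 and -11.3 for the other APAP_HDF libraries and 41 to 52.5 for APAP_MSC. The median chi-square between its counts and those of libraries 2 and 3 was 7.72 and 9.10, against 3.18 between libraries 2 and 3. Several results below are therefore also given without it, but not all that change. Without it, higher members fell from 14 to 10 for phase I drug oxidation, from 15 to 12 for phase II conjugation and from 14 to 10 for amino acid breakdown. Lower members fell from 9 to 6 for hepcidin and BMP response and from 6 to 4 for sinusoidal endothelium.

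With MSC in place of HDF, 1545 of 17582 tested genes differed (8.79%), of which 841 were higher in APAP_MSC (4.78%) and 704 were lower (4.0%). The test was edgeR's quasi-likelihood test with Benjamini-Hochberg adjustment over all tested genes, and a gene was called at an adjusted p under 0.05. At least 2-fold differences were reached by 297 of the higher and 193 of the lower genes, and at least 4-fold differences by 88 and 55. The 3 libraries of one group lay wholly above or below those of the other for 1543 of the 1545 called genes, and for 33.20% of all tested genes. Over all tested genes the median log2 fold change was -0.02, with quartiles of -0.27 and 0.25. Counts of called genes are those of edgeR unless another tool is named. Throughout, higher and lower mean APAP_MSC relative to APAP_HDF, and log2 fold changes stand with their standard error.

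**Figure D1:**
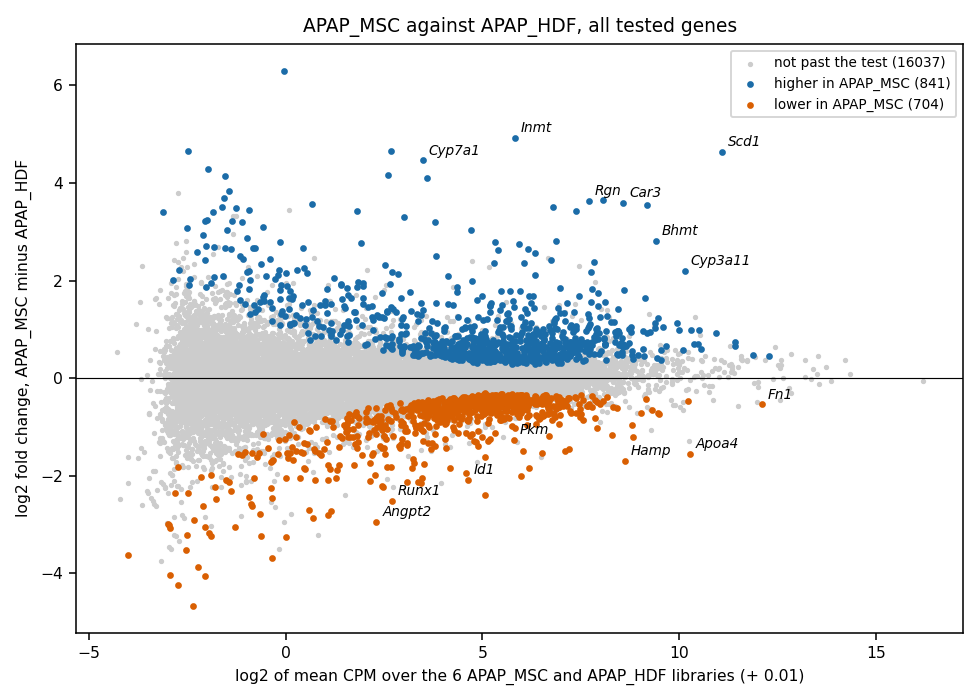
Each point is 1 of 17582 tested genes, with the log2 of the mean CPM over the 6 libraries (0.01 added) on the horizontal axis and the log2 fold change of APAP_MSC minus APAP_HDF on the vertical axis; blue and orange points are the 841 higher and 704 lower genes past the test. Of the genes labelled in the plot, Inmt and Scd1 lie highest at log2 4.91 and 4.64 and Angpt2 lowest at -2.95, and larger values are seen at low CPM.

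The number of calls rested on single libraries. It was 324 without APAP_MSC library 2, 601 without APAP_MSC library 1, 906 without APAP_HDF library 2, 950 without APAP_HDF library 1 and 1020 without APAP_MSC library 3. No gene called in any of these fits had been called in the opposite direction with all libraries. Single genes are marked below where a left-out library ended their call.

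Among the called genes, the mean of the livers given APAP alone lay mostly between those of the 2 cell groups. Among the 841 higher genes, the mean of the APAP libraries fell between the APAP_HDF and APAP_MSC means for 729, below APAP_HDF for 104 and above APAP_MSC for 8. The range of the APAP libraries overlapped that of APAP_HDF for 651 of these genes and that of APAP_MSC for 159. Their median log2 fold change was 0.75 for APAP_MSC minus APAP_HDF, 0.56 for APAP_MSC minus APAP and -0.19 for APAP_HDF minus APAP. Among the 704 lower genes, the APAP mean lay between the groups for 535, above APAP_HDF for 164 and below APAP_MSC for 5, and the 3 medians were -0.66, -0.52 and 0.14. These comparisons share libraries, so their values are set side by side only. The genes were chosen for a difference between the 2 cell groups, and such a choice itself favours an APAP mean between them. On the first principal component of the 9 libraries APAP lay at -23.4, -13.2 and -27.4, within the APAP_HDF range of -43.1 to -11.3.

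Together, 41 gene lists covered hepatocyte metabolism, stress, signalling and cell types, and some genes stand in more than 1 list. The dot plot of list members shows each member's fold change.

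**Figure D2:**
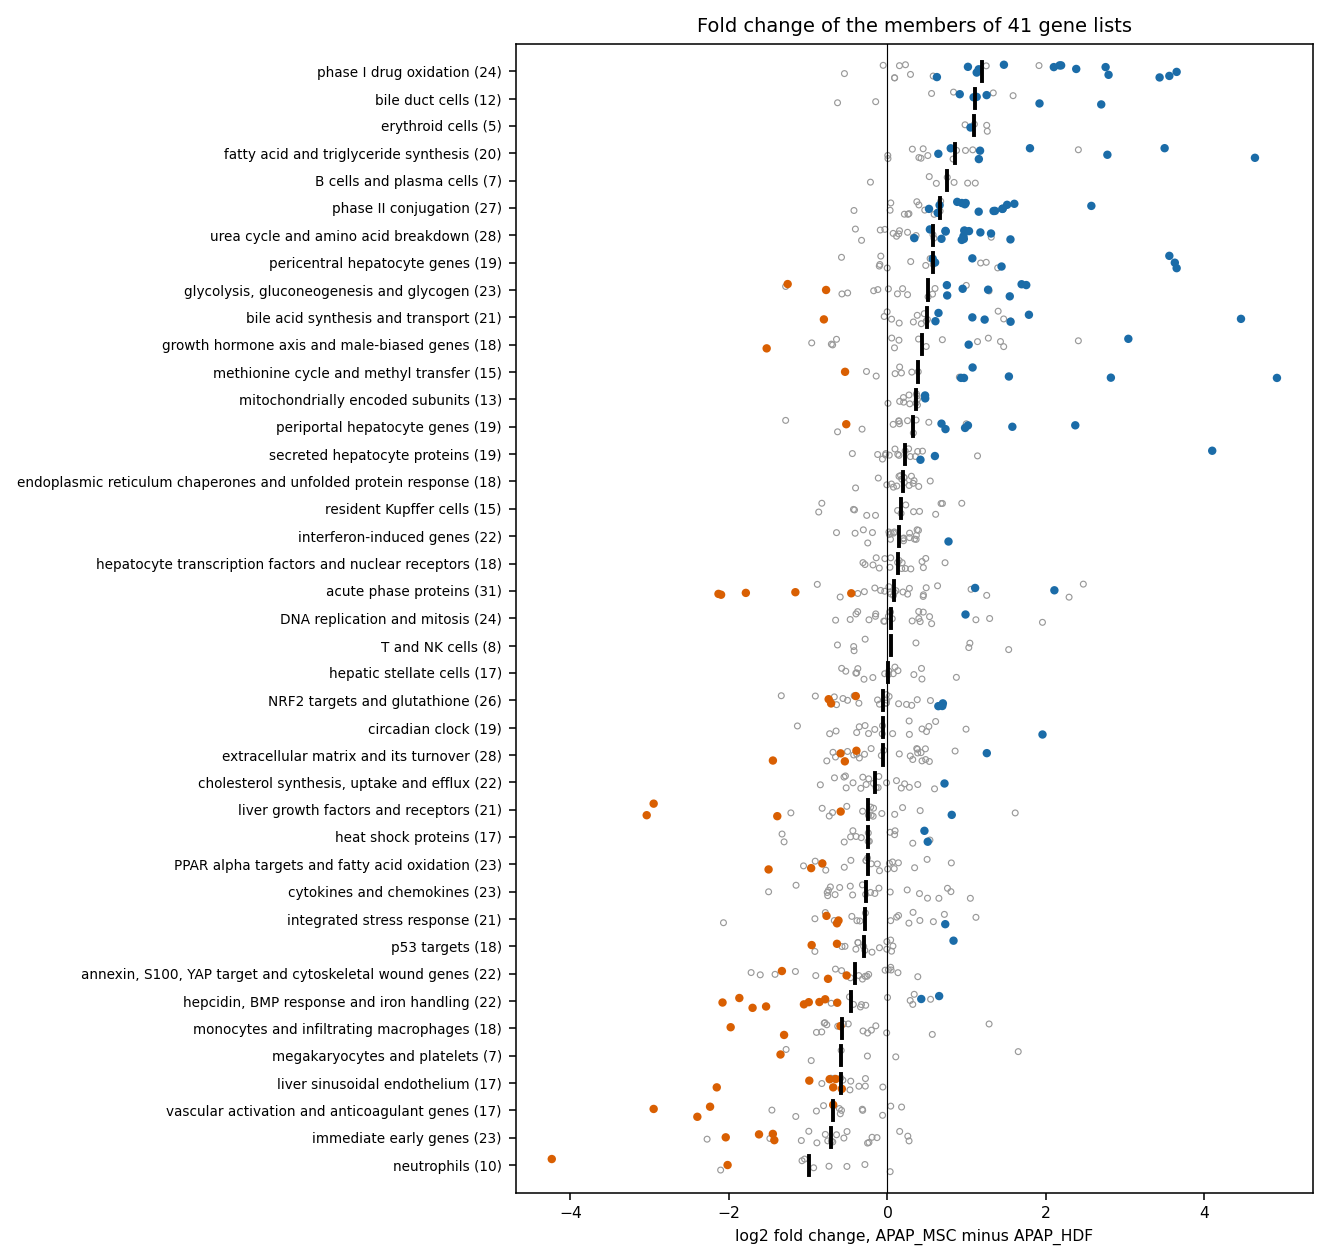
Each row is one of 41 gene lists with its number of tested members, and each dot is a member at its log2 fold change of APAP_MSC minus APAP_HDF; filled dots passed the test (blue higher, orange lower), open dots did not, and the black bar is the list's median. Phase I drug oxidation has a median of 1.20 and immediate early genes one of -0.71.

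Genes of fatty acid and triglyceride synthesis were higher with MSC. Of 20 tested members 8 were called higher and none lower, and the fitted difference was positive in all 20, with a median log2 fold change of 0.85. Scd1, the desaturase that makes oleate from stearate, stood at 5468, 4484 and 2526 CPM in the APAP_MSC libraries, at 228, 126 and 148 CPM in APAP_HDF and at 341, 329 and 329 CPM in APAP. Every APAP_MSC library was thus several times above all 6 others. The difference was 24.9-fold (log2 4.64 ± 0.32, adjusted p = 0.000409). Its near-identical neighbour Scd3 was 17.8-fold higher (adjusted p = 0.000637), and reads may be shared between both. Thrsp, a small protein that promotes lipogenesis, was at 226, 241 and 139 CPM in APAP_MSC, at 26.6, 14.0 and 13.1 CPM in APAP_HDF and at 21.4, 50.1 and 19.1 CPM in APAP (log2 3.50 ± 0.46, adjusted p = 0.00489). Its groups did not overlap, and the APAP libraries sat with or just above APAP_HDF.

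Transcription factors of lipogenesis were higher as well. Srebf1, the insulin-responsive activator of lipogenic genes, was at 623, 570 and 603 CPM in APAP_MSC and 184, 210 and 122 CPM in APAP_HDF (log2 1.80 ± 0.27, adjusted p = 0.0056). Mlxipl, the carbohydrate-responsive factor ChREBP, was 2.22-fold higher (log2 1.15 ± 0.15, adjusted p = 0.00206), and Mid1ip1, a partner of Thrsp that helps acetyl-CoA carboxylase polymerise, was 2.25-fold higher (log2 1.17 ± 0.22, adjusted p = 0.012). The calls of Scd1, Scd3, Thrsp, Srebf1, Mlxipl and Mid1ip1 held under all 15 alternatives. Fasn, the fatty acid synthase, did not pass: it was at 1264, 777 and 635 CPM in APAP_MSC and 690, 263 and 317 CPM in APAP_HDF (log2 1.08 ± 0.39, adjusted p = 0.125), with overlapping groups. Without APAP_HDF library 1, which has the highest Fasn of its group, its adjusted p was 0.0241, and 13 members of the list were called. Without APAP_MSC library 2, 5 members were called, and Me1 was no longer among them (adjusted p = 0.0562, against 0.00939 with all libraries).

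Hepatocyte genes of fructose and glycogen use were higher, and a pair of genes typical of other or growing cells was lower. Of 23 tested members of the glucose list 7 were called higher and 2 lower, with a median log2 fold change of 0.51. Khk, the ketohexokinase that starts fructose use, was at 249, 272 and 274 CPM in APAP_MSC, 63.5, 87.8 and 94.7 CPM in APAP_HDF and 103, 128 and 105 CPM in APAP. The APAP libraries lay above all APAP_HDF and below all APAP_MSC libraries. Khk differed by 3.23-fold (log2 1.69 ± 0.15, adjusted p = 0.000478), and Tkfc, the triokinase of the same route, by 1.93-fold (adjusted p = 0.00147). Pygl, liver glycogen phosphorylase, was at 369, 383 and 382 CPM against 96.5, 135 and 105 CPM (log2 1.75 ± 0.16, adjusted p = 0.000478). Groups did not overlap for any of these 3 genes.

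The 2 lower members were Pkm, the pyruvate kinase of non-hepatocyte and growing cells, and Slc2a1, the widely expressed glucose transporter GLUT1. Pkm was at 36.5, 31.7 and 30.4 CPM in APAP_MSC, 87.7, 81.7 and 66.3 CPM in APAP_HDF and 82.3, 101 and 91.6 CPM in APAP (log2 -1.26 ± 0.13, adjusted p = 0.000637). The APAP_MSC libraries were the 3 lowest of the 9. Slc2a1 was 1.71-fold lower (adjusted p = 0.00324). Pck1, the gluconeogenic enzyme, varied within groups, at 438, 687 and 1003 CPM against 532, 2286 and 2365 CPM, and did not pass (log2 -1.28 ± 0.59, adjusted p = 0.216). The calls of Khk, Tkfc, Pygl, Pkm and Slc2a1 held under all 15 alternatives, and 4 members were called higher without APAP_MSC library 2.

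Promoter sequence is shown for Thrsp and Khk, whose promoters both had an entry in the RefSeq promoter table of build GRCm38.p6, because they stand for the lipogenic and fructose genes that were higher together. The stretch shown runs from 150 bases before the annotated start to the base before it. Windows of 300 bases, 250 before and 50 after the start, were searched on both strands for the E-box CACGTG, the CCAAT box, GGCGCC (the core of a BMP response element), TTCNNNGAA (STAT) and TGANTCA (AP-1). Capitals mark matches to any of these motifs.
Thrsp, chr7:97417551-97417700, minus strand: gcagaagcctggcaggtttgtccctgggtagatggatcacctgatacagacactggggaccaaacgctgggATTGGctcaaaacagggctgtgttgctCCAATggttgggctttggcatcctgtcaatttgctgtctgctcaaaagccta
Khk, chr5:30921409-30921558, plus strand: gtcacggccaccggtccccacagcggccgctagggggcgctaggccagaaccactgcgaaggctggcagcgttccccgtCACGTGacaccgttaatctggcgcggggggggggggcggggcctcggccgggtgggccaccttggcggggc
Thrsp held 2 CCAAT matches, from -79 to -75 (as its reverse complement) and from -52 to -48, and Khk held 1 CACGTG from -71 to -66, counted from the start. No matches overlapped. Of all 32851 promoters of this length in the table, 37.4% held CCAAT and 7.15% held CACGTG, and of the 14694 promoters of tested genes 37.6% and 9.47%. A match is a description of these letters and not a site.

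Of 23 tested PPAR alpha targets and fatty acid oxidation genes edgeR called none higher and 3 lower (2 and 6 at an unadjusted p under 0.05), DESeq2 2 higher and 4 lower and limma-voom 0 and 3, with a median log2 fold change of -0.25 that became 0.03 without APAP_HDF library 3. The lower members were Angptl4, a fasting-induced inhibitor of lipoprotein lipase (28.7, 33.2 and 40.6 CPM against 72.4, 82.7 and 135 CPM, log2 -1.50 ± 0.31, adjusted p = 0.0216), Cpt1a, which admits fatty acids to mitochondria (log2 -0.82 ± 0.21, adjusted p = 0.0341), and the omega-hydroxylase Cyp4a10 (log2 -0.96 ± 0.23, adjusted p = 0.0311). Each call was lost when 1 of several libraries was left out. For Angptl4 these were APAP_MSC library 1 or 2 (adjusted p = 0.0806 and 0.0897), for Cpt1a APAP_MSC library 1 or 2 or any APAP_HDF library (0.0544 to 0.161), and for Cyp4a10 APAP_MSC library 2 or 3 or any APAP_HDF library (0.0629 to 0.146). Between 0 and 1 members were lower without any one of the APAP_MSC libraries 1 and 2 or the 3 APAP_HDF libraries, 5 were lower without APAP library 3, and 1 was higher without APAP_HDF library 3. Among 22 cholesterol genes edgeR called 1, limma-voom none, and DESeq2 1 higher and 3 lower. The edgeR call was Abcg5, a subunit of the sterol exporter of bile (higher, log2 0.72 ± 0.19, adjusted p = 0.0411), and its call was lost in 6 of the 9 fits without 1 library, including the one without APAP_HDF library 1 (adjusted p = 0.113). The median of that list was -0.16 with all libraries and 0.11 without APAP_HDF library 1.

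Bile acid synthesis and transport was higher at its first step and at its export and uptake pumps. Of 21 tested members 7 were called higher and 1 lower, with a median log2 fold change of 0.50. Cyp7a1, whose reaction sets the pace of bile acid synthesis, was at 22.5, 21.8 and 19.8 CPM in APAP_MSC, 0.519, 1.45 and 0.942 CPM in APAP_HDF and 2.58, 3.88 and 1.36 CPM in APAP. The APAP_MSC libraries were close to one another and far above the other 6, a 22.0-fold difference from APAP_HDF (log2 4.46 ± 0.42, adjusted p = 0.00108). Abcb11, the canalicular bile salt export pump, was at 356, 455 and 434 CPM against 104, 172 and 149 CPM (log2 1.55 ± 0.24, adjusted p = 0.00538). Cyp27a1, which oxidises the sterol side chain, was 2.10-fold higher (adjusted p = 0.00108), and Slc10a1, the sinusoidal bile acid uptake carrier, 2.34-fold (adjusted p = 0.0168). Cyp8b1, the sterol 12-alpha-hydroxylase, did not pass at 120, 59.4 and 38.5 CPM against 25.3, 31.2 and 17.6 CPM (log2 1.55 ± 0.46, adjusted p = 0.0744), although its groups did not overlap. Cyp39a1, a hydroxylase of oxysterols, was the lower member (log2 -0.80 ± 0.21, adjusted p = 0.0448) and was lost in 6 of the 9 fits without 1 library (adjusted p up to 0.147). Calls of Cyp7a1, Abcb11 and Cyp27a1 held under all 15 alternatives, that of Slc10a1 was lost without APAP_MSC library 2 (adjusted p = 0.0742) and without the low-count filter (0.0547), and 3 members were higher without APAP_MSC library 2.

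Enzymes of drug oxidation and conjugation were higher, and none was lower. Of 24 phase I genes 14 were called higher (median log2 fold change 1.20), and of 27 phase II genes 15 (median 0.66). Cyp3a11, a main drug-metabolising P450 of mouse liver, was at 1804, 1722 and 2000 CPM in APAP_MSC, 322, 528 and 359 CPM in APAP_HDF and 446, 813 and 502 CPM in APAP (log2 2.19 ± 0.25, adjusted p = 0.00141). Cyp2c70, which makes the muricholic acids of mouse bile, was at 374, 414 and 352 CPM against 68.8, 71.0 and 79.2 CPM (log2 2.38 ± 0.19, adjusted p = 0.000409), with APAP between them at 161, 205 and 113 CPM. Neither gene overlapped between the cell groups. Cyp2c50 was 10.8-fold higher (adjusted p = 0.00237), Cyp2c54 6.74-fold (adjusted p = 0.00537) and Cyp2f2, a periportal P450, 2.02-fold (adjusted p = 0.00267). Cyp2c and Cyp3a genes lie in families of near-identical copies among which reads may be divided, so single members are uncertain.

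Besides Cyp3a11, the P450s known to activate acetaminophen are Cyp1a2 and Cyp2e1. Cyp1a2 was at 550, 519 and 414 CPM in APAP_MSC, 25.7, 45.1 and 47.5 CPM in APAP_HDF and 17.9, 167 and 46.8 CPM in APAP (log2 3.65 ± 0.72, adjusted p = 0.02). Its call was lost without APAP_MSC library 1 or 2 or any 1 of the APAP_HDF libraries (adjusted p = 0.067 to 0.0958) and without the low-count filter (0.0677). Cyp2e1, the best known of them, was at 647, 1146 and 1158 CPM in APAP_MSC and 399, 644 and 935 CPM in APAP_HDF. These values overlap and did not pass (log2 0.58 ± 0.31, adjusted p = 0.279). The differences between these genes' changes were not tested.

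Among conjugating enzymes, Gstm3, a glutathione transferase, was at 195, 121 and 95.9 CPM in APAP_MSC, 18.8, 29.6 and 20.8 CPM in APAP_HDF and 29.6, 41.9 and 21.8 CPM in APAP (log2 2.57 ± 0.33, adjusted p = 0.00408). Gstm4 was 2.74-fold (adjusted p = 0.00146) and Gstm6 2.85-fold higher (adjusted p = 0.00198), and Gstm2, Gstm7 and Gstm1 were called higher as well, within a family of close copies. Ugt2b1, a glucuronosyltransferase, was at 103, 92.5 and 103 CPM against 28.0, 45.4 and 44.7 CPM (log2 1.34 ± 0.18, adjusted p = 0.00254). Nat8, an acetyltransferase of the mercapturate route by which glutathione conjugates leave the body, was 2.73-fold higher (adjusted p = 0.00254). Gstp1, another glutathione transferase, gave 1581, 1228 and 1212 CPM against 1185, 1427 and 1317 CPM and did not pass (adjusted p = 0.907). Leaving out APAP_MSC library 2 reduced both lists to 7 called members each, and leaving out APAP_MSC library 1 reduced phase I to 9. The calls of Gstm2, Gstm3, Gstm4, Gstm6, Gstm7, Ugt2b1 and Nat8 held under all 15 alternatives, and that of Gstm1 was lost without APAP_MSC library 1 (adjusted p = 0.0589), APAP_MSC library 2 (0.0562) or APAP_HDF library 1 (0.0556).

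An uptake carrier of drugs and organic anions was higher as well. Slc22a7, the organic anion transporter OAT2, was at 23.8, 9.05 and 10.7 CPM against 1.27, 1.20 and 1.94 CPM (log2 3.31 ± 0.42, adjusted p = 0.00276). The groups did not overlap, and the APAP libraries, at 3.08, 3.98 and 2.01 CPM, were nearer to APAP_HDF.

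**Figure D3:**
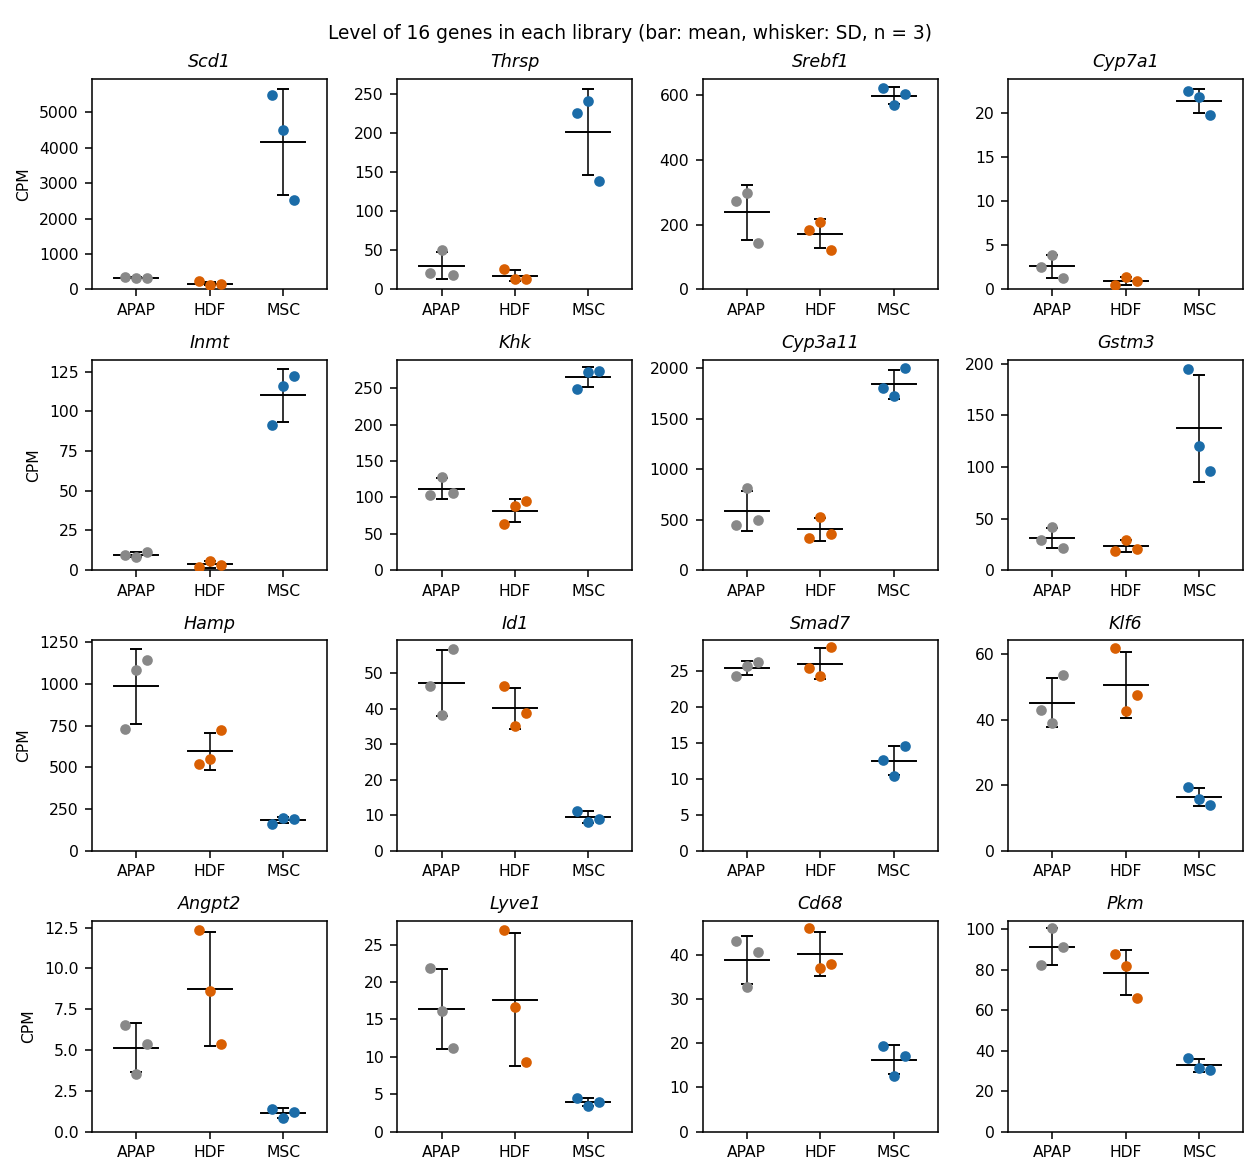
CPM of 16 genes in each of the 9 libraries, by group (APAP, HDF for APAP_HDF, MSC for APAP_MSC); points are libraries, bars the mean and whiskers the SD of 3 libraries, and each panel has its own axis from 0. Scd1, Cyp7a1 and Inmt are high in all 3 APAP_MSC libraries alone, and Hamp, Id1 and Angpt2 are low there.

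Many genes of amino acid breakdown and the urea cycle were higher. Of 28 tested genes edgeR called 14 higher and none lower, DESeq2 16 higher and 1 lower and limma-voom 13 and 0, with a median log2 fold change of 0.58. Among the genes of tyrosine degradation, Hgd, the homogentisate oxidase, was at 282, 343 and 335 CPM against 62.0, 145 and 120 CPM (log2 1.55 ± 0.26, adjusted p = 0.00871), and Fah, the last enzyme, at 446, 472 and 472 CPM against 173, 263 and 277 CPM (log2 0.96 ± 0.16, adjusted p = 0.00678). In both, all APAP_MSC libraries exceeded all APAP_HDF libraries. Haao and Kynu, of tryptophan breakdown, were 2.04-fold (adjusted p = 0.00675) and 1.96-fold higher (adjusted p = 0.00687). Otc, a urea cycle enzyme of the mitochondrion, was 2.25-fold higher (adjusted p = 0.00867), and Ass1, of its cytosolic part, 1.97-fold (adjusted p = 0.0123). Arg1, which releases urea, gave 1541, 1861 and 1791 CPM against 1489, 1834 and 1617 CPM and did not pass (adjusted p = 0.822). Calls of Hgd, Fah, Haao, Kynu and Otc held under all 15 alternatives, while that of Ass1 was lost without APAP_MSC library 2 (adjusted p = 0.06). The list had 8 called members without APAP_MSC library 1 and 7 without APAP_MSC library 2.

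In the methionine cycle and methyl transfer list, 6 of 15 members were higher and 1 lower (median log2 fold change 0.39, and 0.18 without APAP_HDF library 1). Inmt, a methyltransferase of indoles and other amines, had the largest increase of the genes named by size. It was at 91.4, 116 and 122 CPM in APAP_MSC, 1.75, 5.72 and 3.48 CPM in APAP_HDF and 9.52, 8.21 and 11.2 CPM in APAP (30.2-fold, log2 4.91 ± 0.39, adjusted p = 0.000637). The APAP libraries lay above every APAP_HDF library and far below every APAP_MSC library. Gamt, which completes creatine synthesis, was 2.89-fold higher (log2 1.53 ± 0.15, adjusted p = 0.000637), and both calls held under all 15 alternatives. Bhmt, which remethylates homocysteine with betaine, was at 1383, 1159 and 1008 CPM in APAP_MSC and 184, 148 and 170 CPM in APAP_HDF, but at 1152, 696 and 156 CPM in APAP, so that 1 APAP library lay at the APAP_HDF level and 1 at the APAP_MSC level. Its call (log2 2.82 ± 0.58, adjusted p = 0.0234) was lost without APAP_MSC library 1 or 2 or any 1 of the APAP_HDF libraries (adjusted p = 0.0823 to 0.0964) and without the low-count filter (0.078). No member was lower without any 1 of the 6 libraries, and the list had 3 higher members without APAP_MSC library 1 and 2 without APAP_MSC library 2.

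Both ends of the liver lobule held higher genes. Of 19 pericentral genes 7 were higher and none lower (median log2 fold change 0.58), and of 19 periportal genes 6 were higher and 1 lower (median 0.33, and 0.17 without APAP_HDF library 1). Rgn, a calcium-binding lactonase of hepatocytes, was at 309, 461 and 389 CPM against 7.50, 30.4 and 56.1 CPM (log2 3.63 ± 0.65, adjusted p = 0.0143). Glul, the glutamine synthetase of the innermost pericentral hepatocytes, was at 40.2, 38.4 and 31.8 CPM in APAP_MSC, 27.8, 22.0 and 24.6 CPM in APAP_HDF and 30.2, 34.5 and 40.5 CPM in APAP (log2 0.57 ± 0.14, adjusted p = 0.027). For Rgn the APAP libraries resembled APAP_HDF (29.1, 38.5 and 63.5 CPM), whereas for Glul they overlapped APAP_MSC. Aldh1b1, a mitochondrial aldehyde dehydrogenase on the periportal list, was 2.98-fold higher (adjusted p = 0.00424) under all 15 alternatives. The call of Rgn was lost without APAP_MSC library 2 (adjusted p = 0.0581) or APAP_HDF library 2 (0.057), and that of Glul without APAP_MSC library 1 or 2 or APAP_HDF library 2 or 3 (0.0607 to 0.111). Without APAP_MSC library 2 there were 2 higher members in each of both lists, without APAP_MSC library 1 there were 4 and 3, and without APAP_HDF library 2 there were 2 pericentral ones.

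With all 9 libraries no transcription factor of hepatocyte identity was called, and some secreted proteins of hepatocytes were higher. None of 18 tested hepatocyte transcription factors and nuclear receptors was called by edgeR, DESeq2 or limma-voom, while 3 were higher and 1 lower at an unadjusted p under 0.05, and the list's median log2 fold change was 0.14. In each of the 3 fits that left out an APAP library 1 member was called higher, and 2 were with the 6 libraries alone. Alb gave 75570, 73618 and 68707 CPM against 62366, 86006 and 79230 CPM (log2 -0.06 ± 0.17, adjusted p = 0.852). Of 19 secreted hepatocyte proteins 9 were higher without overlap of the groups (16.80% of all tested genes were), and 3 were called higher (4.78% of all tested genes were). Serpina6, the corticosteroid-binding globulin, was among them at 20.1, 25.2 and 23.6 CPM in APAP_MSC, 0.299, 2.03 and 1.70 CPM in APAP_HDF and 2.07, 1.51 and 2.29 CPM in APAP (17.1-fold, log2 4.10 ± 0.52, adjusted p = 0.00392). The APAP_MSC libraries stood alone, and this call held under all 15 alternatives. It was the single call left in the list without any 1 of the APAP_MSC libraries or of APAP_HDF libraries 1 and 2, since Apoc3 (log2 0.42 ± 0.12, adjusted p up to 0.16) and Serpinc1 (log2 0.60 ± 0.16, adjusted p up to 0.14) were then lost. Ghr, the growth hormone receptor, was 2.03-fold higher (adjusted p = 0.00863), 1 of 2 higher members among 18 genes of the growth hormone axis. Igfbp1, a binding protein of insulin-like growth factors, was the 1 lower member (log2 -1.52 ± 0.37, adjusted p = 0.0403), and its call was lost without any 1 of the 6 libraries or APAP library 3 (adjusted p up to 0.129). Without any 1 of the APAP_MSC libraries or APAP_HDF library 2 the list had 1 higher and no lower member, without APAP_HDF library 1 no lower member and without APAP library 2 it had 2 lower ones. Igf1, the main hepatic target of growth hormone, gave 510, 392 and 448 CPM against 373, 414 and 434 CPM (adjusted p = 0.552). Car3, an abundant carbonic anhydrase of male mouse liver, was at 836, 684 and 594 CPM against 27.2, 72.4 and 75.5 CPM (log2 3.59 ± 0.43, adjusted p = 0.00313), under all 15 alternatives. Among 19 clock genes edgeR and limma-voom each called 1, and DESeq2 2 higher and 1 lower. The edgeR call, Dbp, was higher by log2 1.95 ± 0.37 (adjusted p = 0.012), with an adjusted p of 0.05 without APAP_MSC library 2, while 2 or 3 members were higher without APAP library 1 or 2, APAP_MSC library 3 or APAP_HDF library 1.

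Hepcidin and the BMP response were lower with MSC. Liver endothelium releases BMP2 and BMP6, and hepatocytes answer through SMAD proteins by making hepcidin, the hormone that blocks iron export, together with the feedback genes Id1, Smad6 and Smad7. Of 22 tested genes of this list 9 were lower and 2 higher, with a median log2 fold change of -0.45. Hamp, hepcidin itself, was at 162, 199 and 188 CPM in APAP_MSC, 518, 548 and 723 CPM in APAP_HDF and 731, 1083 and 1145 CPM in APAP. The 3 groups did not overlap and stood in that order, and APAP_MSC was 3.25-fold below APAP_HDF (log2 -1.70 ± 0.19, adjusted p = 0.00108). Id1, an inhibitor of basic helix-loop-helix factors, was at 11.3, 8.01 and 9.07 CPM, against 46.3, 35.1 and 38.7 CPM in APAP_HDF and 46.2, 38.3 and 56.7 CPM in APAP (log2 -2.08 ± 0.17, adjusted p = 0.000478). For Id1 the APAP libraries overlapped APAP_HDF. Smad7, the inhibitor of BMP and TGF-beta receptors, was at 12.6, 10.4 and 14.6 CPM against 25.4, 24.3 and 28.3 CPM (log2 -1.05 ± 0.13, adjusted p = 0.00155). The calls of Hamp, Id1 and Smad7 held under all 15 alternatives.

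The ligands were lower as well. Bmp2 was at 4.45, 4.89 and 6.96 CPM against 10.4, 11.6 and 10.5 CPM (log2 -0.99 ± 0.20, adjusted p = 0.0137), and Bmp6 at 2.33, 2.21 and 2.18 CPM against 4.69, 4.14 and 3.35 CPM (log2 -0.86 ± 0.22, adjusted p = 0.0379). Bmp2 lost its call without APAP_MSC library 1 or 2 (adjusted p = 0.0584 and 0.0854), and Bmp6 in 6 of the 9 fits without 1 library (up to 0.15). Id2, Id4, Smad6 and Hamp2, a second hepcidin gene, completed the lower members, and each was lost in 2 to 5 of those fits (adjusted p up to 0.12). The higher members were Hfe (log2 0.43 ± 0.11, adjusted p = 0.0374), the haemochromatosis protein, and Hfe2 (log2 0.65 ± 0.18, adjusted p = 0.0451), the hemojuvelin co-receptor for BMP, which were lost in 5 and 6 of those fits (up to 0.127 and 0.18). Without APAP_MSC library 1 or 2, 4 members were lower. None was higher without any 1 of the APAP_MSC libraries or APAP_HDF library 3, and 1 without APAP_HDF library 1 or 2 or APAP library 2. Tfrc, the transferrin receptor that rises in iron-poor cells, gave 47.0, 65.5 and 97.0 CPM against 50.9, 63.8 and 53.2 CPM (adjusted p = 0.64). BMP2 and BMP6 come chiefly from sinusoidal endothelium, whose marker genes, described below, were also low in APAP_MSC, and the part of this in the hepcidin values was not tested.

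The Hamp promoter is shown because its known BMP and STAT elements are the ones through which hepcidin is usually described as regulated. The same stretch, from 150 bases before the start, is taken from the RefSeq table of build GRCm38.p6, and capitals mark matches to the 5 motifs listed above.
Hamp, chr7:30944030-30944179, minus strand: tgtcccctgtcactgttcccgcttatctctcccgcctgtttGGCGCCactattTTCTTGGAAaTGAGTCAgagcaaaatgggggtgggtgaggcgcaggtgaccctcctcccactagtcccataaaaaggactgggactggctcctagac
It held GGCGCC from -109 to -104, TTCTTGGAA, which fits TTCNNNGAA, from -97 to -89, and TGAGTCA, which fits TGANTCA, from -87 to -81, with no overlap between matches. Of all 32851 promoters of that table, GGCGCC was found in 11.9%, TTCNNNGAA in 8.30% and TGANTCA in 7.81%, and of the 14694 promoters of tested genes in 19.3%, 7.14% and 5.74%.

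Immediate early genes leaned lower, and most did not pass the test. Of 23 tested members none was called higher and 4 lower, while the fitted difference was negative in 20 and the median log2 fold change was -0.71. Klf6, a zinc finger factor induced by injury, was at 19.6, 15.9 and 13.9 CPM in APAP_MSC, 61.9, 42.6 and 47.5 CPM in APAP_HDF and 42.9, 39.2 and 53.7 CPM in APAP. Its 3 APAP_MSC libraries were the lowest of all 9 (log2 -1.62 ± 0.18, adjusted p = 0.00108). Fosl1, a partner of JUN in AP-1, was at 1.11, 0.774 and 0.951 CPM against 4.48, 3.45 and 3.75 CPM (log2 -2.04 ± 0.37, adjusted p = 0.0085), and Maff, a small MAF factor, at 11.5, 6.25 and 9.60 CPM against 22.3, 21.9 and 29.6 CPM (log2 -1.43 ± 0.28, adjusted p = 0.0162). The best known members did not pass. Fos gave 3.05, 1.70 and 3.19 CPM against 9.90, 3.88 and 8.44 CPM (adjusted p = 0.0822), Jun 62.7, 30.9 and 35.4 CPM against 70.1, 33.0 and 50.5 CPM (adjusted p = 0.772), and Egr1 40.9, 12.2 and 22.2 CPM against 53.5, 22.6 and 73.8 CPM (adjusted p = 0.335). The call of Klf6 held under all 15 alternatives, those of Fosl1 and Maff were lost without APAP_MSC library 2 (adjusted p = 0.0582 and 0.0602), and 1 member was called in that fit. Klf4, the remaining lower member (log2 -1.45 ± 0.33, adjusted p = 0.0227), was lost without any 1 of the APAP_MSC libraries or APAP_HDF library 1 (adjusted p up to 0.0923). DESeq2 called 8 members lower, and 13 were lower at an unadjusted p under 0.05.

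Wound, p53 and stress genes were called in part, where 4.78% of all tested genes were called higher and 4.0% lower. Among 22 annexin, S100 and cytoskeletal genes Anxa3, Actn1 and Tpm1 were lower, with a median log2 fold change of -0.41. DESeq2 called 8 lower and limma-voom 2, and 10 were lower at an unadjusted p under 0.05. Without overlap of the groups 9 were lower (16.40% of all tested genes were). The edgeR count was 0 and the median -0.15 without APAP_HDF library 1, and the count was also 0 without any 1 of the APAP_MSC libraries or APAP_HDF library 2, while 7 were lower without APAP_HDF library 3 and 5 without APAP library 1. Anxa2, an annexin of injured and migrating cells, was at 44.1, 49.95 and 38.0 CPM against 216, 128 and 57.0 CPM, a wide spread within APAP_HDF (log2 -1.61 ± 0.42, adjusted p = 0.0502). Among 18 p53 targets Cdkn1a, the cell cycle inhibitor p21, was at 42.9, 48.4 and 52.6 CPM against 98.7, 71.4 and 109 CPM (log2 -0.96 ± 0.16, adjusted p = 0.00587), and Fas, the death receptor, was 1.78-fold higher (adjusted p = 0.00991), both under all 15 alternatives. Sesn2, a stress-induced inhibitor of mTORC1, was the other lower member (log2 -0.64 ± 0.14, adjusted p = 0.0208) and was lost in 5 of the 9 fits without 1 library (up to 0.0867).

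Among 26 genes of NRF2 and glutathione 3 were higher and 3 lower, with a median log2 fold change of -0.06. Gclc, the catalytic subunit of the enzyme that limits glutathione synthesis, was at 471, 507 and 626 CPM in APAP_MSC and 647, 1015 and 964 CPM in APAP_HDF (log2 -0.71 ± 0.20, adjusted p = 0.0491). This call lay at the threshold and was lost in 6 of the 9 fits without 1 library (up to 0.199) and under 4 of the other 6 alternatives. Its partner subunit Gclm gave 232, 243 and 293 CPM against 172, 241 and 236 CPM (log2 0.24 ± 0.14, adjusted p = 0.331), and Nqo1, a classical NRF2 target, 13.2, 12.2 and 17.4 CPM against 27.2, 17.8 and 15.6 CPM (adjusted p = 0.42). Cat, the catalase of peroxisomes, was at 1768, 1717 and 1780 CPM against 795, 1166 and 1282 CPM (log2 0.70 ± 0.16, adjusted p = 0.0233), a call lost without any 1 of the APAP_MSC libraries (0.0544 to 0.0866). Without APAP_MSC library 1 or 2 the list had 1 higher and no lower member, without APAP_MSC library 3 or APAP_HDF library 2 no lower member, and without APAP_HDF library 3 only 1 lower member. In the integrated stress response list 1 of 21 members was higher and 3 lower. Psat1, of serine synthesis, was 1.70-fold lower (adjusted p = 0.0168) and Shmt2, of mitochondrial folate, 1.66-fold higher (adjusted p = 0.0102), and both were lost without APAP_MSC library 2 (0.0845 and 0.0529), Psat1 also without APAP_HDF library 2 (0.0547). That list had no lower member without APAP_MSC library 2 or APAP_HDF library 2, 1 without APAP_MSC library 1 or 3 or APAP_HDF library 3, and 2 higher ones without APAP_HDF library 3.

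Of the heat shock genes, 2 were higher and none lower, while DESeq2 called 3 higher and 2 lower and limma-voom 2 and 0. At an unadjusted p under 0.05, 3 were higher and 4 lower. The fitted difference was positive in 7 and negative in 10, with a median log2 fold change of -0.24 (-0.06 without APAP_HDF library 1). The mitochondrial chaperone pair Hspd1 and Hspe1 was called higher, by log2 0.47 ± 0.12 (adjusted p = 0.0341) and 0.51 ± 0.13 (adjusted p = 0.0354), 2 of 17 tested members, and both calls were lost without any 1 of the APAP_MSC libraries or APAP_HDF libraries 1 and 2 (adjusted p up to 0.105), while another member was called without APAP_HDF library 1. Hspa1a, the inducible HSP70, did not pass at 17.2, 7.57 and 18.7 CPM in APAP_MSC against 25.8, 51.1 and 32.4 CPM in APAP_HDF (log2 -1.33 ± 0.43, adjusted p = 0.0953), and was at 3.91, 8.75 and 9.94 CPM in APAP. Here APAP_HDF was the highest of the 3 groups. None of 18 endoplasmic reticulum chaperones was called by edgeR or limma-voom, 3 were higher at an unadjusted p under 0.05 and 1 by DESeq2.

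Genes of endothelial activation and clotting control were lower. Of 17 tested members 4 were called lower and none higher, with a median log2 fold change of -0.68 (-0.29 without APAP_HDF library 1). Angpt2, released by activated endothelium to loosen vessels, was at 1.37, 0.812 and 1.22 CPM in APAP_MSC, 12.3, 8.60 and 5.34 CPM in APAP_HDF and 6.55, 3.55 and 5.34 CPM in APAP. It was 7.73-fold lower with MSC (log2 -2.95 ± 0.35, adjusted p = 0.00158), and all APAP_MSC libraries lay below the other 6. Procr, the endothelial protein C receptor, was at 2.07, 1.57 and 2.22 CPM against 10.8, 7.65 and 9.24 CPM (log2 -2.24 ± 0.21, adjusted p = 0.000637). The calls of Angpt2 and Procr held under all 15 alternatives. Eng, a TGF-beta co-receptor of endothelium, was lower by a smaller amount (log2 -0.68 ± 0.17, adjusted p = 0.0354) and was lost in 5 of the 9 fits without 1 library (up to 0.154). The count was 2 without any 1 of the APAP_MSC libraries or APAP_HDF library 1. Thbd, thrombomodulin, did not pass (2.81, 2.76 and 2.94 CPM against 13.0, 6.53 and 3.77 CPM, adjusted p = 0.0783).

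Markers of sinusoidal endothelium leaned the same way. All 17 tested markers had a negative fitted difference, with a median log2 fold change of -0.59, 12 were lower without overlap of the groups (16.40% of all tested genes were), and 6 were called lower. Their summed level was 305.4 to 343.4 CPM in APAP_MSC, 394.8 to 546.4 in APAP_HDF and 417.5 to 619.9 in APAP. Lyve1, a hyaluronan receptor of these cells, was at 4.54, 3.40 and 3.96 CPM in APAP_MSC, 27.0, 16.6 and 9.34 CPM in APAP_HDF and 21.9, 16.2 and 11.2 CPM in APAP (log2 -2.15 ± 0.38, adjusted p = 0.0125). Oit3, a secreted protein typical of liver endothelium, was at 10.1, 8.95 and 9.18 CPM against 19.5, 21.0 and 15.5 CPM (log2 -0.99 ± 0.15, adjusted p = 0.00398). Neither overlapped between groups. Stab2, a defining scavenger receptor, gave 23.5, 20.4 and 23.9 CPM against 38.0, 36.2 and 26.0 CPM and did not pass (log2 -0.56 ± 0.23, adjusted p = 0.162). The call of Oit3 held under all 15 alternatives and that of Lyve1 was lost without APAP_MSC library 2 (adjusted p = 0.0669) and without the low-count filter (0.0502). The count was 2 without APAP_MSC library 1, 1 without APAP_MSC library 2, 3 without APAP_HDF library 2 and 10 without APAP library 3. The part of these markers in the lower levels of Angpt2, Procr, Bmp2 and Bmp6 was not tested.

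Among growth factors and receptors 4 of 21 were lower and 1 higher, with a median log2 fold change of -0.24 (-0.08 without APAP_HDF library 1). Angpt2, given above, and Wnt9b, a Wnt ligand of endothelium at no more than 0.113 CPM in APAP_MSC, were among the lower ones. The call of Wnt9b (adjusted p = 0.0278) was lost without APAP_HDF library 1 (0.0813) or APAP_MSC library 1 (0.0705) or 3 (0.0839). Inhbb, the activin B subunit and a ligand that can raise hepcidin, was at 4.80, 2.98 and 4.37 CPM against 14.2, 10.03 and 7.61 CPM (log2 -1.39 ± 0.24, adjusted p = 0.0074), and its call held under all 15 alternatives. Inhba, the activin A subunit, was higher at 49.4, 40.8 and 40.2 CPM against 24.6, 24.3 and 25.4 CPM (log2 0.81 ± 0.16, adjusted p = 0.0129), a call lost without APAP_MSC library 1 (0.0542). The 2 activin subunits thus differed in opposite directions. Tgfa, an EGF receptor ligand, was 1.51-fold lower (adjusted p = 0.0137; 0.0862 without APAP_MSC library 2). Hgf, the hepatocyte growth factor, did not pass (4.10, 3.74 and 3.65 CPM against 6.26, 6.94 and 3.17 CPM, adjusted p = 0.309).

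Macrophage genes differed in part. Of 18 tested markers of monocytes and infiltrating macrophages 3 were lower and none higher by edgeR and by limma-voom, and 4 lower and 1 higher by DESeq2, with a median log2 fold change of -0.57 and a summed level of 120.5 to 168.9 CPM in APAP_MSC, 146.7 to 210.5 in APAP_HDF and 200.1 to 271.6 in APAP. Cd68, a lysosomal protein of macrophages, was at 19.3, 12.7 and 17.0 CPM against 46.1, 37.0 and 37.9 CPM (log2 -1.30 ± 0.16, adjusted p = 0.00177). Chil3, a secreted chitinase-like protein of monocyte-derived cells, was at 1.97, 1.89 and 1.96 CPM in APAP_MSC, 9.71, 6.84 and 6.39 CPM in APAP_HDF and 9.52, 8.16 and 11.8 CPM in APAP (log2 -1.98 ± 0.21, adjusted p = 0.000789). The APAP and APAP_HDF libraries overlapped for Chil3 and the APAP_MSC libraries lay below both. Cd9, a tetraspanin, was the third (log2 -0.59 ± 0.14, adjusted p = 0.0258), lost without any 1 of the APAP_MSC libraries or APAP_HDF libraries 1 and 2 (up to 0.0983). The general macrophage marker Adgre1 gave 4.21, 3.25 and 3.10 CPM against 4.07, 5.31 and 2.28 CPM (adjusted p = 0.843). None of 15 markers of resident Kupffer cells was called by edgeR or limma-voom, 1 was lower by DESeq2, 2 were higher and 1 lower at an unadjusted p under 0.05, and Clec4f, their defining lectin, gave 26.6, 19.0 and 13.5 CPM against 14.8, 22.1 and 13.3 CPM. Cd14, the co-receptor for bacterial lipopolysaccharide, is on neither of these marker lists. It was lower at 4.10, 3.55 and 3.86 CPM against 24.7, 15.6 and 10.2 CPM (log2 -2.13 ± 0.34, adjusted p = 0.00766). The calls of Cd68, Chil3 and Cd14 held under all 15 alternatives.

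Other leukocytes gave few reads. Neutrophil markers summed to 3.87 to 5.57 CPM in APAP_MSC, 4.51 to 13.4 in APAP_HDF and 12.1 to 16.9 in APAP over 10 tested genes (median log2 fold change -0.99, and -0.33 without APAP_HDF library 1), and Ly6g, Mpo, Ngp, Ltf and Camp had at most 8 reads in any library. S100a8 gave 0.849, 0.491 and 0.370 CPM against 1.73, 0.975 and 0.543 CPM (adjusted p = 0.206), so its groups overlapped. The 2 called markers, Retnlg and Mmp8, were at 0.141 CPM or less in every APAP_MSC library and 0.629 CPM or less in APAP_HDF, and none was called without APAP_HDF library 1, APAP_MSC library 1 or 2, or APAP library 2. No T, NK or B cell marker was called by edgeR, DESeq2 or limma-voom, of 8 and 7 tested, with 1 of each list higher at an unadjusted p under 0.05. None of 17 stellate cell markers was called by edgeR or limma-voom, 1 was higher by DESeq2, and 2 were higher and 3 lower at an unadjusted p under 0.05, with summed levels of 295.7 to 342.5 CPM in APAP_MSC and 289.4 to 396.7 in APAP_HDF. Among 7 platelet markers Itgb3, an integrin also found on endothelium, was lower at 4.87, 4.87 and 4.56 CPM against 15.9, 10.3 and 10.6 CPM (log2 -1.36 ± 0.19, adjusted p = 0.00307), under all 15 alternatives.

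Bile duct markers were higher as a group of small values. Of 12 tested markers 6 were higher and none lower by edgeR and by limma-voom, and 8 higher and 1 lower by DESeq2, with a median log2 fold change of 1.11 and a summed level of 156.9 to 171.4 CPM in APAP_MSC, 136.8 to 142.8 in APAP_HDF and 127.9 to 185.9 in APAP. Krt19, a keratin of bile ducts, was at 2.23, 2.47 and 2.04 CPM against 1.05, 0.959 and 0.815 CPM (log2 1.25 ± 0.27, adjusted p = 0.017), and Epcam, a surface adhesion protein, at 3.01, 2.85 and 3.22 CPM against 1.29, 1.71 and 1.16 CPM (log2 1.13 ± 0.24, adjusted p = 0.0164). Groups did not overlap for either. Sox9, which marks ducts and also reactive hepatocytes, went the other way without passing, at 40.03, 26.2 and 39.8 CPM against 53.3, 51.1 and 59.6 CPM (log2 -0.63 ± 0.19, adjusted p = 0.063). The count rested on single libraries: none was called without APAP_MSC library 1, 1 without APAP_MSC library 2, 2 without APAP_HDF library 2 and 3 without APAP_MSC library 3 or APAP_HDF library 1, while 1 was called lower without APAP library 1 or 3. Krt19 was lost without APAP_MSC library 1 or 2 or APAP_HDF library 2 (adjusted p = 0.051 to 0.0845) and Epcam without APAP_MSC library 1 or 2 (0.0538 and 0.0603). Of 5 erythroid genes, Alas2, the haem synthesis enzyme of red cell precursors, was higher at 33.6, 25.9 and 35.7 CPM against 11.5, 14.2 and 20.5 CPM (log2 1.04 ± 0.21, adjusted p = 0.0166), a call lost without APAP_MSC library 1 (0.0576) or APAP_HDF library 2 (0.0577), and all 5 were called without APAP library 2.

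**Figure D4:**
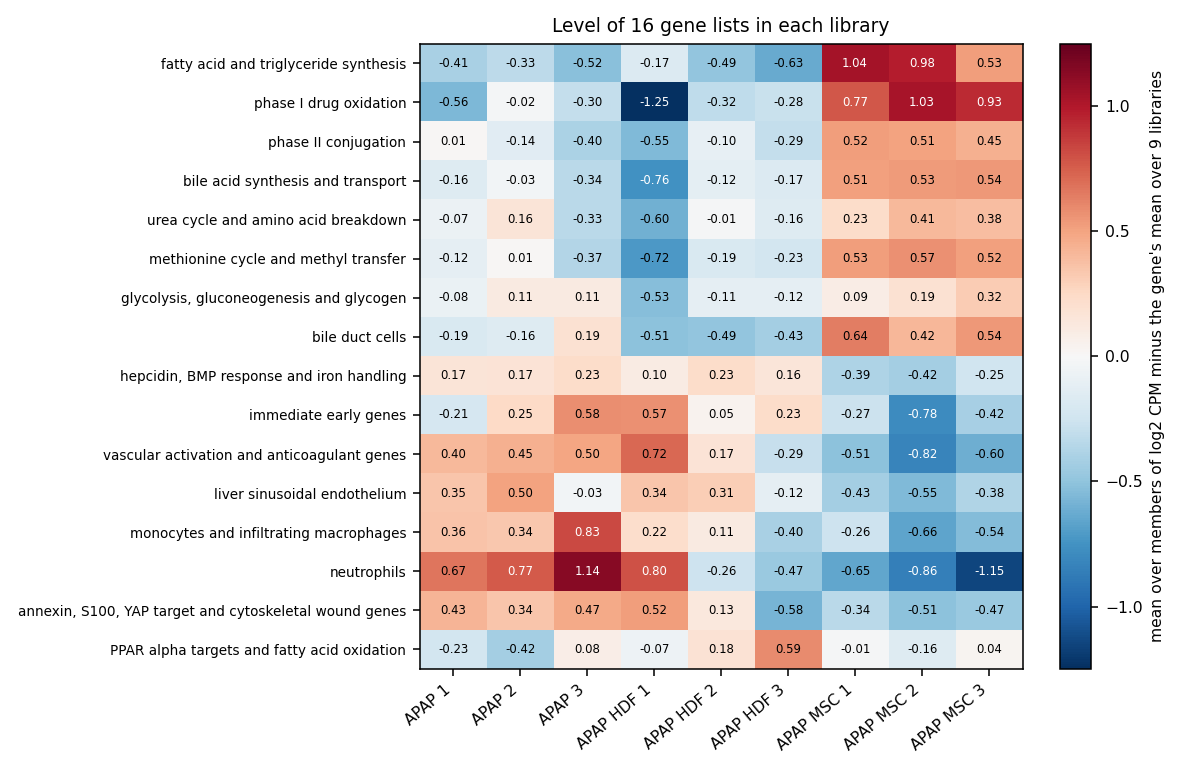
Mean level of 16 gene lists (rows) in each of the 9 libraries (columns), as the mean over list members of log2 CPM minus the gene's mean over the 9 libraries; red is above and blue below 0, and the value is printed in each cell. Phase I drug oxidation runs from 0.77 to 1.03 in APAP_MSC and from -1.25 to -0.28 in APAP_HDF, with APAP_HDF library 1 the lowest.

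Acute phase genes were called in both directions, and cytokine and interferon genes had 1 call between them. Of 31 acute phase genes 2 were higher and 5 lower, with a median log2 fold change of 0.08. Saa1, serum amyloid A, was at 125, 631 and 116 CPM in APAP_MSC, 9.82, 76.6 and 91.5 CPM in APAP_HDF and 12.5, 78.7 and 114 CPM in APAP, and did not pass (log2 2.29 ± 1.14, adjusted p = 0.264). Lcn2, lipocalin 2, gave 263, 506 and 356 CPM against 241, 302 and 401 CPM (adjusted p = 0.802). Saa4, the constitutive serum amyloid, was higher (log2 1.11 ± 0.26, adjusted p = 0.0307) and Slpi, a protease inhibitor, lower (log2 -2.10 ± 0.50, adjusted p = 0.0362), with calls lost in 4 and 6 of the 9 fits without 1 library (adjusted p up to 0.1 and 0.126). Between 1 and 3 members were lower in 8 of those fits, all but the one without APAP library 3, and between 0 and 1 higher in these 8 fits, except for 4 without APAP library 1. None of 23 cytokines and chemokines was called by edgeR or limma-voom, 2 were higher by DESeq2, and 2 were higher and 3 lower at an unadjusted p under 0.05. Ccl2, which draws monocytes, gave 5.13, 2.06 and 2.22 CPM against 7.47, 4.16 and 4.22 CPM (adjusted p = 0.329). Bst2, tetherin, was the only call among 22 interferon-induced genes, 1.70-fold higher (adjusted p = 0.00991, and 0.0547 without APAP_MSC library 2). The fitted difference was positive in 17 of these 22 genes. Their median log2 fold change was 0.14, and 0.43 without APAP_HDF library 1.

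Of 28 tested matrix genes 4 were lower and 1 higher, with a median log2 fold change of -0.06 (0.21 without APAP_HDF library 1). Nid1, which links laminin to collagen in basement membranes, was at 73.5, 90.5 and 74.0 CPM against 319, 185 and 145 CPM (log2 -1.45 ± 0.28, adjusted p = 0.0156), and Fn1, fibronectin, at 3539, 3468 and 3757 CPM against 5173, 4933 and 5519 CPM (log2 -0.54 ± 0.13, adjusted p = 0.033). Col3a1, a fibrillar collagen, was higher at 36.6, 44.2 and 43.6 CPM against 15.6, 24.1 and 12.4 CPM (log2 1.25 ± 0.25, adjusted p = 0.016), with APAP at 33.7, 49.5 and 31.4 CPM. For Col3a1 the APAP libraries overlapped APAP_MSC and lay above APAP_HDF. Each call was lost in some fits: Nid1 without any 1 of the APAP_MSC libraries (0.0523 to 0.0599), Fn1 without any 1 of those or APAP_HDF library 2 or 3 (0.0654 to 0.154), and Col3a1 without APAP_MSC library 2 (0.0662) or APAP_HDF library 1 (0.0586), and Nid1 and Col3a1 also without the low-count filter (0.0672 and 0.0503). No member was lower without APAP_MSC library 2 or 3, 1 without APAP_MSC library 1 or APAP_HDF library 2, and 2 without APAP_HDF library 1 or 3.

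Of 24 genes of DNA replication and mitosis edgeR and limma-voom each called 1, higher, and DESeq2 called 3 higher and 1 lower. The edgeR call was Rrm2, a ribonucleotide reductase subunit (log2 0.98 ± 0.24, adjusted p = 0.0322), lost without APAP_MSC library 1 or 2 or APAP_HDF library 2 or 3 (adjusted p up to 0.126). Lower members numbered 2 without APAP library 1 and 1 without APAP_HDF library 1 or 3. Mki67, a marker of cycling cells, gave 3.86, 0.755 and 0.775 CPM against 0.787, 0.439 and 0.145 CPM (log2 1.96 ± 0.78, adjusted p = 0.154), where a single APAP_MSC library was high and the rest overlapped. Of 13 mitochondrially encoded subunits, all with a positive fitted difference (median log2 0.36), 2 were higher, mt-Atp6 (log2 0.47 ± 0.13, adjusted p = 0.0399) and mt-Nd3 (log2 0.48 ± 0.12, adjusted p = 0.0311). Neither was called without APAP_MSC library 1 or 2 or any 1 of the APAP_HDF libraries, and 1 was called without APAP_MSC library 3. Of the 13 subunits DESeq2 called 8 higher and limma-voom 2, and 9 were higher at an unadjusted p under 0.05. Without overlap of the groups 11 were higher (16.80% of all tested genes were).

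The largest decreases among called genes with a mean of at least 5 CPM included several that belong to no list above. Runx1, a transcription factor of blood cells that also appears in injured tissue, was at 2.77, 1.19 and 1.81 CPM in APAP_MSC, 14.8, 9.08 and 9.15 CPM in APAP_HDF and 7.29, 6.65 and 11.2 CPM in APAP (log2 -2.51 ± 0.33, adjusted p = 0.0028). Hmga1, an architectural chromatin protein of growing cells, was at 28.7, 21.3 and 25.5 CPM against 118, 93.9 and 89.5 CPM (4.0-fold lower, SE 0.19 on the log2 scale, adjusted p = 0.000637). Its near copy Hmga1b was 3.84-fold lower (adjusted p = 0.000637), and reads may be shared between both. Nipal1, a magnesium transporter, was 4.12-fold lower (adjusted p = 0.0074) and Arhgap27, a regulator of small GTPases, 3.52-fold (adjusted p = 0.00268). Groups did not overlap for any of these 5 genes, and their calls held under all 15 alternatives. Cyp2c55, among the largest increases, was at 10.8, 15.8 and 10.3 CPM against 0.236, 0.991 and 0.217 CPM (log2 4.66 ± 0.74, adjusted p = 0.00899), also under all 15 alternatives.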

How the data were processed

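RNA came from TRIZOL extracts of a piece of liver and went into libraries of the universal plus mRNA-seq kind (Tecan), per the labels' protocols. The submitters' processing notes name HISAT2, Subread, DESeq2 and builds mm39 and GRCm39, without versions; annotation and strand use are not given in the sources used here, so overlapping and antisense genes cannot be separated. The deposited table holds raw counts of 28956 gene symbols in 9 columns, per the file headers and values, including 24 repeated symbols and 22 turned into dates. A second deposited table of normalized counts was not used. Headers give the group of a column but no replicate number, so library numbers follow column order within a group.

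From the counts, edgeR 4.0.16 in R 4.3.3 was used: filterByExpr by group (17582 genes, 99.966% of counts), TMM scaling, and a robust quasi-likelihood fit to all 9 libraries with group as the only term and the contrast APAP_MSC minus APAP_HDF, adjusted by Benjamini-Hochberg over all tested genes, two-sided. The common biological coefficient of variation was 0.197. CPM use TMM-scaled library sizes. The 15 alternatives were DESeq2 1.42.0, limma 3.58.1 (voom), DESeq2-type size factors, the 6 libraries alone, 2 other filters on low counts, and each of the 9 libraries left out.

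The comparison, the 41 lists (764 of 771 symbols in the table, 738 tested) and the tests were chosen with earlier results of these data known. Genes named are the 15 largest increases and 15 largest decreases among non-overlapping calls of at least 5 CPM, the 5 list members with the smallest p, and fixed readouts. Other list members and the gene families among the observations were chosen after their values were seen. A few list members that enter the counts are not reported here by name. In simulated counts over 17257 genes for this comparison, calls reached 6% of the genes altered by log2 0.5, 76% at log2 1, 94% at log2 2 and 100% at log2 3, and 11 of 149 calls were false. The altered genes, 50 at each size, all had a mean above 1 CPM. With 149 calls against 1545 in the data, the adjusted threshold was stricter there. The rates are therefore not the sensitivity of the comparison itself, nor that for genes under 1 CPM.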

Additional observations from a re-analysis of the deposited data

How the results depend on the processing

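No paired analysis was possible because the columns carry no replicate numbers that could be matched to the labels, so the planned replicate block was not run. Genes called APAP_MSC vs APAP_HDF numbered 2531 with DESeq2 and 1545 with edgeR, with 1337 against 841 genes called higher in APAP_MSC and 1194 against 704 genes called lower in APAP_MSC, and the other analysis settings gave 1426 (limma-voom) to 1778 calls (6 libraries alone). Over the 9 fits that each left out 1 library, calls ranged from 324 to 1730, the higher ones from 217 to 972 and the lower ones from 107 to 758, with both minima without APAP_MSC library 2. That fit kept 20.9% of the original calls and DESeq2 99.4%. No gene called with all libraries was called in the opposite direction under any alternative. List members called numbered 166, and 61 (without APAP_MSC library 2) to 178 (without APAP library 3) with 1 library left out, 85 without APAP_MSC library 1. Of 208 called genes examined singly, 79 kept their call under all 15 alternatives and 129 lost it under at least 1, while 54 of 104 uncalled genes passed under at least 1. The sign turned for 4 uncalled genes. For Nkg7 this was with limma-voom (log2 -0.087, adjusted p = 0.974). The others turned when 1 library was left out: Lcn2 ranged from -0.0095 (without APAP_MSC library 2, adjusted p = 0.995) to 0.48, Jun from -0.63 to 0.051 (without APAP_HDF library 1, 0.97) and Alb from -0.18 to 0.036 (without APAP_HDF library 2, 0.936). The cause of these shifts was not tested. With 3 libraries a group, changes near log2 0.5 were mostly missed in simulated data, so an uncalled gene is not shown to be unchanged, and genes under about 1 CPM rest on few reads.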

Other observations

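Several enzyme families, most of whose members are outside the lists, are described here; they were chosen after their values were seen, so their counts are a description, and 4.78% of all tested genes were called higher. Of 7 carboxylesterases of the Ces1 group 3 were higher, and of 5 of the Ces2 group 3, with median log2 fold changes of 1.78 and 1.33. These enzymes split ester drugs and lipids. Ces1g was at 102, 106 and 124 CPM in APAP_MSC and 9.06, 27.7 and 27.6 CPM in APAP_HDF (log2 2.37 ± 0.37, adjusted p = 0.00853), and Ces2a at 155, 200 and 186 CPM against 66.0, 87.7 and 59.7 CPM (log2 1.34 ± 0.15, adjusted p = 0.00113). Of 5 Hsd3b steroid dehydrogenases 4 were higher, among them Hsd3b3 at 98.3, 145 and 126 CPM against 14.0, 22.5 and 22.2 CPM (log2 2.65 ± 0.32, adjusted p = 0.00311). Of 17 aldehyde dehydrogenases 6 were higher and none lower, with Aldh1a7 at 290, 306 and 274 CPM against 115, 121 and 115 CPM (log2 1.31 ± 0.11, adjusted p = 0.000478), and of 4 medium-chain acyl-CoA synthetases of the Acsm group 3 were higher. The groups overlapped for none of the genes named here. Each of these families holds close copies among which reads may be divided.

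Some families were mixed. Of 16 Cyp4 genes 2 were higher and 4 lower: Cyp4f14, an omega-hydroxylase, was at 215, 189 and 187 CPM against 29.9, 62.8 and 71.8 CPM (log2 1.85 ± 0.32, adjusted p = 0.012), while Cyp4b1 was at 6.15, 6.04 and 7.51 CPM against 20.2, 17.2 and 10.7 CPM (log2 -1.29 ± 0.26, adjusted p = 0.0152), a call lost without APAP_MSC library 1 or 2 (adjusted p up to 0.0871). Of 15 apolipoproteins 2 were higher and 2 lower. Apoa4, which is carried on chylomicrons and HDL, was at 605, 528 and 753 CPM in APAP_MSC, 2560, 1635 and 1329 CPM in APAP_HDF and 1493, 1182 and 1147 CPM in APAP (log2 -1.55 ± 0.23, adjusted p = 0.00431). Gpx1, the main cytosolic glutathione peroxidase, was at 564, 460 and 481 CPM against 150, 207 and 206 CPM (log2 1.42 ± 0.15, adjusted p = 0.000789), the 1 call among 8 glutathione peroxidases. Papss2, which makes the sulfate donor of sulfotransferases, was at 107, 126 and 98.8 CPM against 33.2, 39.7 and 30.3 CPM (log2 1.68 ± 0.16, adjusted p = 0.000637). The terminal complement gene C8b was 2.02-fold higher (adjusted p = 0.00198), 1 of 3 higher genes among 4 of C8 and C9. The calls of Cyp4f14, Apoa4, Gpx1, Papss2 and C8b, like those of Ces1g, Ces2a, Hsd3b3 and Aldh1a7, held under all 15 alternatives.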
